A study of Homo sapiens with 8 samples.

Results

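RBM45 is an RNA-binding protein that was found in the inclusions of motor neurons in amyotrophic lateral sclerosis (ALS). The genes described here are RBM45 itself and 5 genes linked to ALS, TARDBP, MATR3, ATXN2, C9orf72 and HNRNPA1. CLIP peaks of tagged RBM45 were assigned to a gene where they shared at least 1 base with its span on its own strand, by position alone. The 6 spans together measure 267.8 kb in the hg19 build. They held 91 of the 210878 stranded peaks of WT CLIP replicate 1, 56 of the 65587 stranded peaks of WT CLIP replicate 2, and 25 of the 13758 peak pairs that the authors deposited as shared by both replicates. The 25 paired peaks were 27.5% of the replicate 1 peaks and 44.6% of the replicate 2 peaks in these genes, against 6.52% and 20.9% of the whole lists.

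HEK293T, a human embryonic kidney cell line, was transduced with a lentivirus for FLAG-HA-tagged human RBM45. Cells were irradiated with ultraviolet light (300 mJ/cm2 at 254 nm), which links protein to the RNA it touches, and tagged RBM45 was pulled down through its HA tag (CLIP, cross-linking and immunoprecipitation). The 8 libraries form 4 groups of 2 replicates, namely CLIP from METTL3 knockout cells, CLIP from wild-type (WT) cells, and the size-matched inputs of METTL3 knockout and of WT cells, which had no antibody. METTL3 is the catalytic subunit of the complex that places most m6A on messenger RNA, and all 4 groups carried the tagged RBM45. The promoter of the transgene is not given in the labels, nor is it stated that the cells' own RBM45 was removed. All values are from WT CLIP peaks. METTL3 knockout CLIP and both inputs were not analysed here, so no change between genotypes and no enrichment over input is given. Read counts were not used, and sequencing depth is unknown. Nothing in the labels tells if replicates were separate cultures, and the spread between them may be technical.

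Most of these genes encode proteins that bind RNA. RBM45 itself has several RNA recognition motifs and is found mainly in the nucleus. TARDBP encodes TDP-43, the main protein of ALS inclusions, which binds UG-rich RNA, represses the splicing of cryptic exons and limits its own messenger RNA. MATR3 encodes matrin 3, a nuclear matrix protein that regulates splicing, and HNRNPA1 encodes hnRNP A1, an abundant splicing repressor. ATXN2 encodes ataxin-2, a cytoplasmic protein of stress granules whose CAG repeat, at intermediate length, raises the risk of ALS. C9orf72 carries, near its start, the GGGGCC repeat whose expansion is the most common inherited cause of ALS, and its protein acts in membrane traffic and autophagy. Each peak below comes with 2 values from the authors' lists, the fold enrichment over the peak caller's background and the −log10 p, which is not adjusted for multiple testing. Distances are counted from the start of the gene in the direction of transcription.

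Peaks were spread unequally over the 6 genes. ATXN2 held 71 of the 91 replicate 1 peaks (78.0%) and 42 of the 56 replicate 2 peaks (75%), while its span is 55.1% of the total length. MATR3 held 15 and 11 peaks in replicates 1 and 2, TARDBP 2 and 3, RBM45 2 and 0, and C9orf72 1 and 0. HNRNPA1 held no peak in either list. Per length, ATXN2 had 0.481 peaks per kb in replicate 1 and 0.285 in replicate 2, MATR3 had 0.259 and 0.190, and TARDBP had 0.150 and 0.225. RBM45 had 0.116 and 0, and C9orf72 had 0.0366 and 0. Both ATXN2 values lay above both values of every other gene. MATR3 and TARDBP overlapped, at means of 0.224 ± 0.049 and 0.187 ± 0.053 peaks per kb (SD, n = 2 each). RBM45 and C9orf72 also overlapped, since each was at 0 in replicate 2. A peak number depends on how much of an RNA was present as well as on how it was bound, and the abundance of these RNAs was not analysed here.

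**Figure D1:**
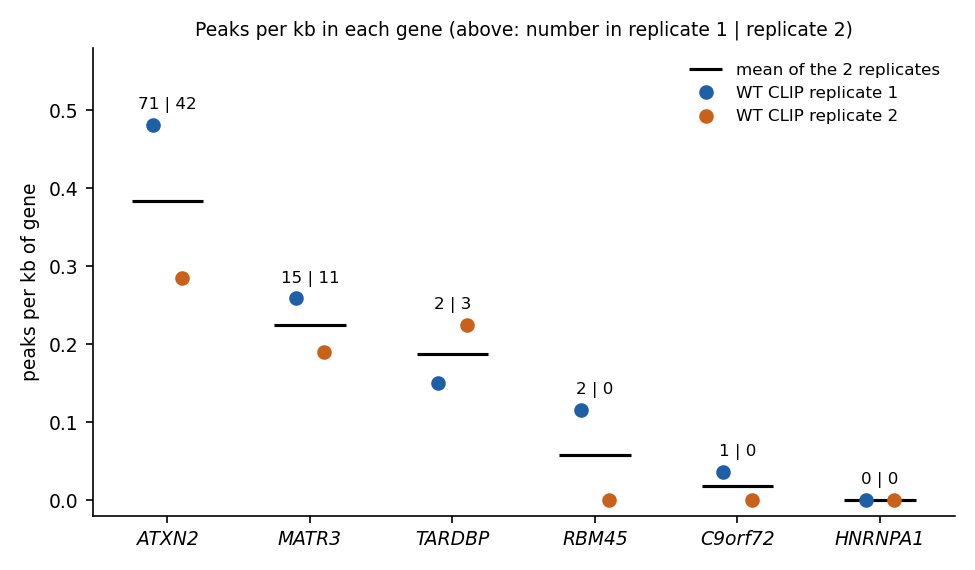
Peaks per kb of gene (vertical axis) for each of the 6 genes, with a point for each WT CLIP replicate and a line at their mean; the numbers printed over the points are peak counts in replicate 1 and replicate 2. ATXN2 stands highest at 0.481 and 0.285 peaks per kb, and HNRNPA1 is at 0 in both lists.

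RBM45 carried only 2 listed peaks on its own gene, both in replicate 1 and both of low fold. The gene lies on chromosome 2, from 178977151 to 178994382, plus strand. One peak, of 30 bases from 178977406 to 178977435, lay 0.255 kb from the start of the gene and had a fold of 1.805 and a −log10 p of 4.64. The other, of 32 bases from 178988989 to 178989020, lay 11.8 kb from the start and had a fold of 1.16 and a −log10 p of 2.48. These were the only peaks among the 91 with a fold under 2, which 0.338% of all replicate 1 peaks have. Replicate 2 listed none in the gene, and its nearest peaks on that strand were 94236 and 82651 bases from those of replicate 1. The first peak passed 61.9% of the replicate 1 list by −log10 p, yet only 0.146% of the list had a lower fold. Among replicate 1 peaks whose −log10 p was within 10% of its own, the median fold was 3.84 and 0.0521% were lower. The same share for the second peak was 0.00723%, against a median fold of 2.34.

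The tagged transgene is a further source of RBM45 RNA. Reads from its coding sequence would align to exons of the RBM45 gene, and they cannot be told apart from reads of the cell's own transcript in these lists. Reads at these 2 peaks were not analysed here. The RBM45 span used here, 17.2 kb, is shorter than the RBM45 gene in GENCODE release 29, which is 26.6 kb long on another build. Extending the span by 10 kb on each side added no peak in either list.

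**Figure D2:**
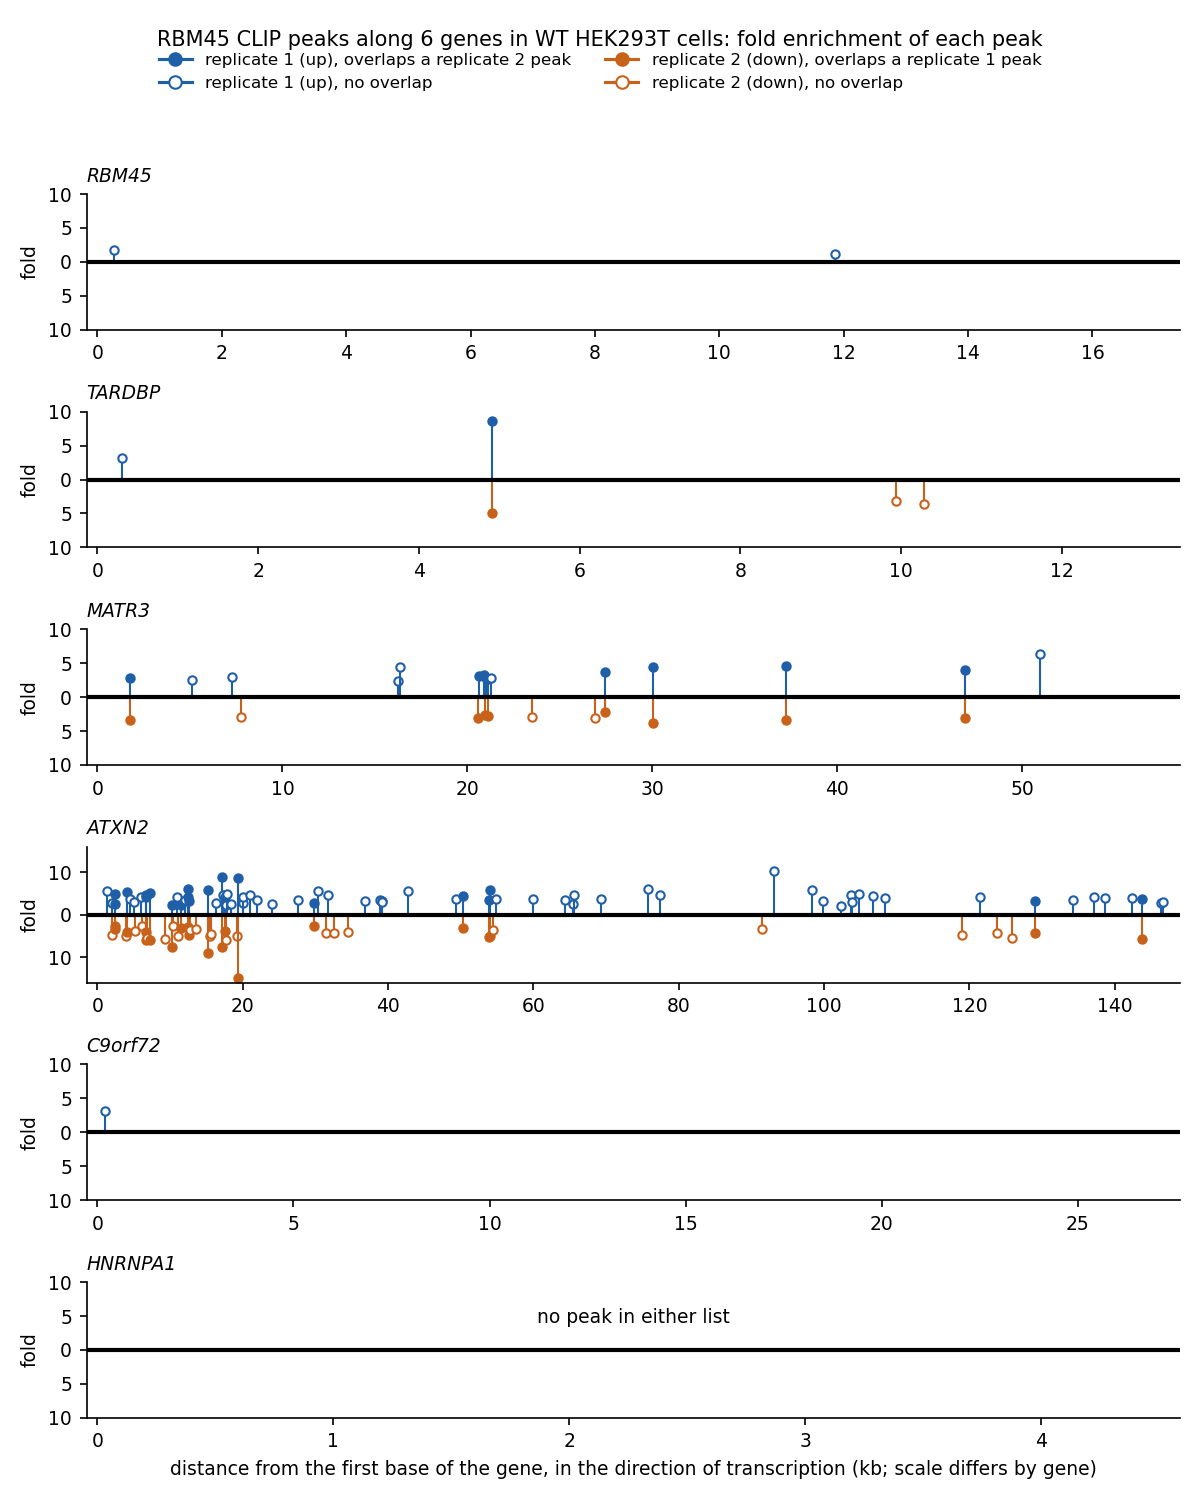
Position and fold enrichment of every listed peak in the 6 genes (horizontal axis: kb from the start of the gene, on a scale that differs by gene; vertical axis: fold enrichment, replicate 1 upward and replicate 2 downward). Filled points share at least 1 base with a peak of the other replicate; RBM45 has 2 open points below 2-fold and HNRNPA1 none.

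TARDBP, which encodes TDP-43, had 1 position listed in both replicates at exactly the same 30 bases, chromosome 1, 11077357 to 11077386, plus strand. This peak lay 4.895 kb from the start of a 13.3-kb span that runs from 11072462 to 11085796. Its fold was 8.65 in replicate 1 and 4.99 in replicate 2, and its −log10 p was 18.6 and 9.30. In replicate 1 it stood above 99.4% of the list by fold, and in replicate 2 above 81.8%. It was the stronger of the 2 TARDBP peaks in replicate 1. The other, at 11072751 to 11072784, 0.289 kb from the start, had a fold of 3.21 and no replicate 2 peak within 4573 bases.

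Replicate 2 listed 2 further TARDBP peaks that replicate 1 did not. The peak at 11082727 to 11082756 had the highest −log10 p of the gene in replicate 2, 9.39, with a fold of 3.57. The peak at 11082382 to 11082417 had a fold of 3.18 and a −log10 p of 5.00. Both lay 9.92 to 10.3 kb from the start. TDP-43 is known to bind and limit its own RNA near the end of the gene, in the 3′ untranslated region, and whether these peaks lie in that region was not analysed here. TARDBP was the 1 gene of the 6 with more peaks in replicate 2 than in replicate 1, where the whole lists ran the other way at 3.22 replicate 1 peaks for each replicate 2 peak. Counts of 3 and 2 are too small to read an order from.

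MATR3, which encodes matrin 3, had peaks along most of its 57.9-kb span on chromosome 5 (138609441 to 138667366, plus strand). Of its replicate 2 peaks, 8 of 11 overlapped a replicate 1 peak (72.7%, 95% exact Clopper-Pearson interval 39.0 to 94.0), and 9 of 15 replicate 1 peaks overlapped replicate 2 (60.0%, 32.3 to 83.7). In the whole lists these shares were 28.8% and 8.88%. The intervals cover counting error only and treat neighbouring peaks as independent. No test against the rest of the lists was made, since the genes were chosen with earlier results of these data known.

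The authors' deposited list paired 6 MATR3 peaks. The pair with the highest lower −log10 p lay 30.03 kb from the start, at 138639469 to 138639500 in replicate 1, with folds of 4.50 and 3.77 in replicates 1 and 2. At 138646666 to 138646696, 37.2 kb from the start, the folds were 4.53 and 3.35. Nearest to the start, 1.76 kb into the gene at 138611205 to 138611235, they were 2.86 and 3.42. These 3 positions differed in which replicate was higher, and each pair lay within a factor of 2.

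The remaining MATR3 pairs had folds of 3.96 and 3.01 at 138656341 to 138656372, 3.73 and 2.13 at 138636855 to 138636893, and 2.64 and 2.74 at 138630516 to 138630602. All 3 were again within a factor of 2. The last of these sat in a short stretch, 20.5 to 21.2 kb from the start, that held 5 replicate 1 peaks of 34 to 91 bases. Replicate 2 listed 3 peaks there, of 44 to 81 bases, so the stretch was listed in both replicates although the peak edges differed. Of the 9 MATR3 overlaps, 3 were in this stretch and too short for the deposited list, with 1, 21 and 27 shared bases.

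The MATR3 peak of highest −log10 p had no counterpart. It was 80 bases wide, at 138614498 to 138614577 in replicate 1, with a −log10 p of 22.9 and a fold of only 2.59, and the nearest replicate 2 peak was 2638 bases away. In GENCODE release 29, MATR3 overlaps on its own strand the noncoding gene SNHG4, the snoRNA genes SNORA74A and SNORA74D and the pseudogene RNA5SP195. The same release lists same-strand overlaps of the protein-coding gene AL109811.4 with TARDBP, of the snRNA gene RF00066 with ATXN2 and of AC078778.2 with HNRNPA1. Peaks were assigned by position alone, so where these genes overlap, their reads could not be separated from those of MATR3, TARDBP, ATXN2 or HNRNPA1. Whether the shared TARDBP peak lies in such an overlap was not analysed here. The MATR3 peak with the third highest −log10 p in replicate 1, 15.6, lay at 138660394 to 138660425. It had the highest fold of MATR3, 6.36, and was also unmatched, at 4022 bases from replicate 2. In replicate 2 the 3 peaks of highest −log10 p were all matched, at 138611183, 138639467 and 138646666, with folds of 3.42, 3.77 and 3.35.

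MATR3 peaks had low folds for their p values. Among list peaks whose −log10 p was within 10% of each peak's own, a median of 4.27% had a lower fold than the MATR3 peak in replicate 1, and 3.11% in replicate 2. All 15 replicate 1 peaks and all 11 replicate 2 peaks were below the median fold of such peaks. In ATXN2, 48 of 71 replicate 1 peaks and 28 of 42 replicate 2 peaks were below it, with medians of 27.3% and 34.5%. Both RBM45 peaks were also below the median, as were 1 of 2 TARDBP peaks in replicate 1 and 3 of 3 in replicate 2. The replicate 1 peak of TARDBP that both lists share was above it, with a fold of 8.65 against a median of 8.16.

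**Figure D3:**
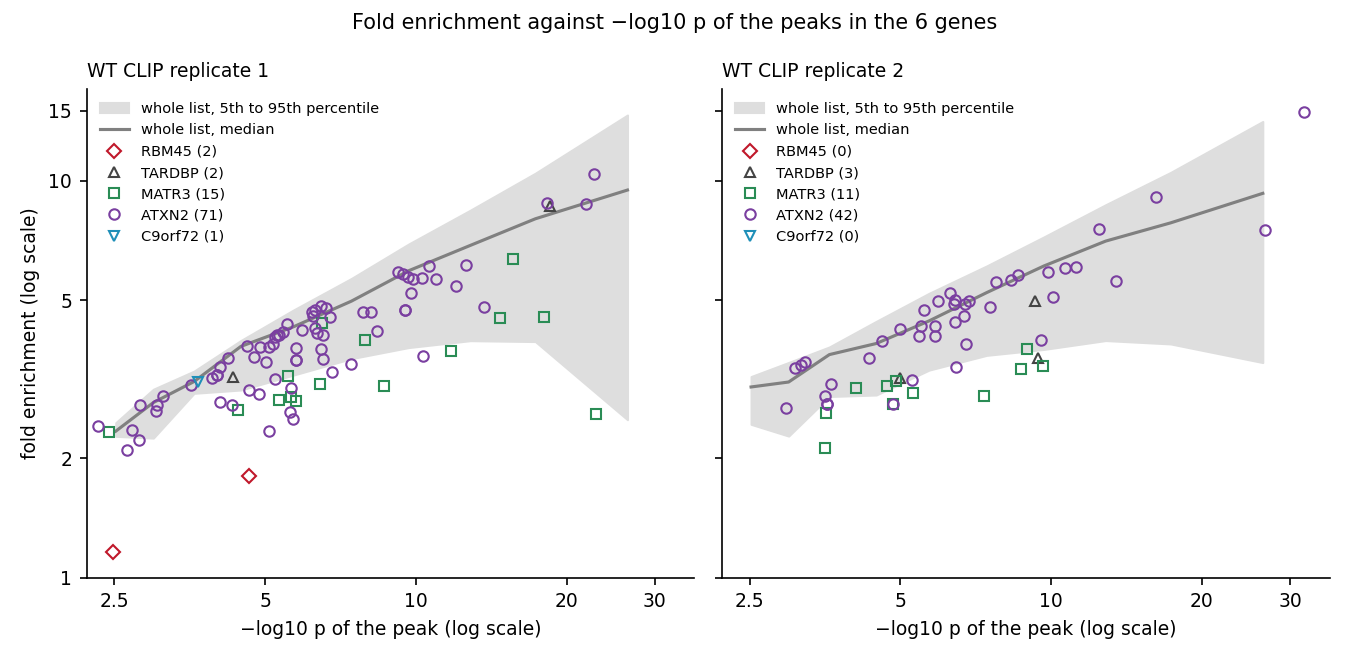
Fold enrichment (vertical, log scale) against −log10 p (horizontal, log scale) of the peaks in the 6 genes, with the median and the 5th to 95th percentile range of the whole list in grey, for each WT CLIP replicate. The 2 RBM45 peaks, at folds of 1.805 and 1.16, lie below the grey range, and the MATR3 peaks run along its lower edge.

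ATXN2, which encodes ataxin-2, was the gene with the most peaks, and they were densest near its start. The span covers 147.5 kb of chromosome 12, from 111890018 to 112037480, on the minus strand. Within the first 20 kb lay 28 of 71 replicate 1 peaks (39.4%) and 28 of 42 replicate 2 peaks (66.7%). Cut into 10 equal segments of 14746 bases, the gene had 18 and 20 peaks in segment 1, 15 and 8 in segment 2, 8 and 4 in segment 3, and 5 and 4 in segment 4. From segment 5 to segment 10 replicate 1 had 2 to 7 peaks in each, and replicate 2 had 0 to 4. Segments 5, 6 and 8 held none in replicate 2. The replicates therefore listed like numbers near the start, whereas beyond the first 20 kb replicate 1 listed 43 peaks and replicate 2 listed 14. The whole lists held 3.22 replicate 1 peaks for each replicate 2 peak. The numbers beyond 20 kb were near that ratio, and the equal numbers within 20 kb were not.

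**Figure D4:**
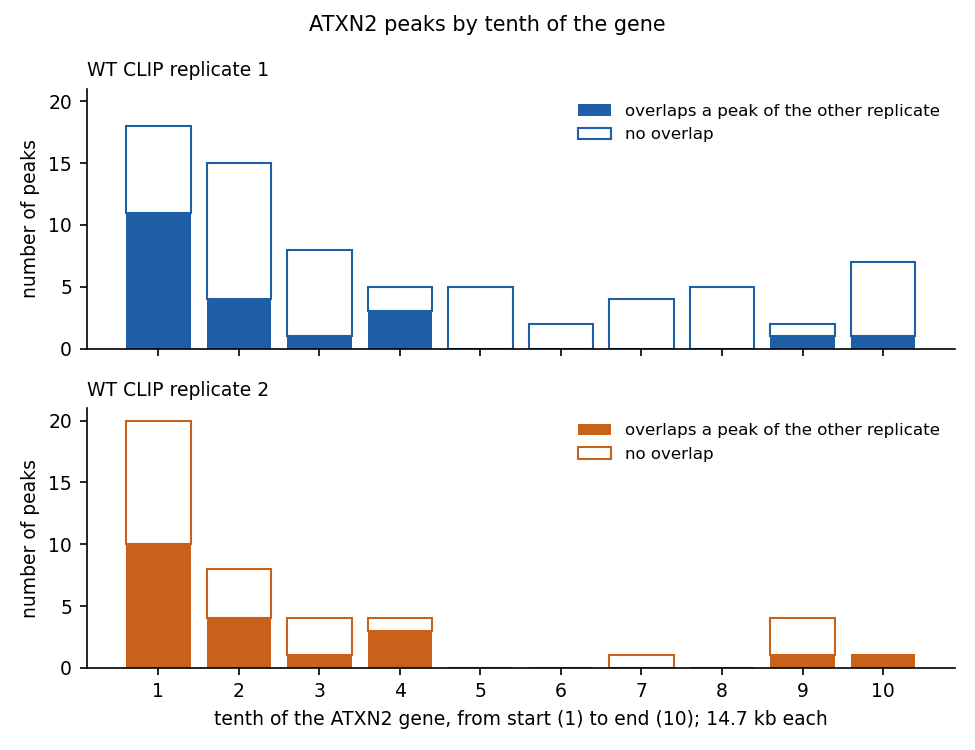
Number of ATXN2 peaks in each of 10 equal segments of the gene (horizontal axis, start to end) for each WT CLIP replicate, with the filled part overlapping a peak of the other replicate. Segment 1 holds 18 and 20 peaks, and 11 and 10 of them overlap.

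On a fixed grid of windows of this length along each strand of the genome, 1.19% of the 62590 windows with a replicate 1 peak held 18 or more, and 0.138% of the 28239 windows with a replicate 2 peak held 20 or more. The median window held 2 peaks in replicate 1 and 1 in replicate 2. The ATXN2 segment set against these windows was the fullest segment of the gene with the most peaks per kb. It was counted from the start of the gene and not on the grid. A segment taken for its high count falls among the fuller windows by that choice. These shares are therefore descriptive, and whether the segment is unusual was not tested. The protein-coding ATXN2 transcript of matching span in GENCODE release 29 has 25 exons that make up 3.19% of its span, and its first intron, 42.9 kb, is the longest. Those lengths belong to another build, and peaks were not placed in exons or introns here. Neighbouring ATXN2 peaks were a median of 957.5 bases apart in replicate 1 and 836 bases in replicate 2.

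Of the ATXN2 peaks, 20 of 42 in replicate 2 overlapped replicate 1 (47.6%, interval 32.0 to 63.6) and 21 of 71 in replicate 1 overlapped replicate 2 (29.6%, 19.3 to 41.6). In the whole lists these shares were 28.8% for replicate 2 and 8.88% for replicate 1. The overlap in replicate 1 was 53.6% of 28 peaks within the first 20 kb and 14.0% of 43 peaks beyond it. In replicate 2 it was 50% of 28 peaks and 42.9% of 14 peaks. Beyond 20 kb, 6 peaks of each list overlapped the other list, so these 2 shares differ through the numbers of peaks listed there. The 20-kb limit was chosen after the values were seen. Of the 22 unmatched replicate 2 peaks, 14 lay within 500 bases of a replicate 1 peak, and the median distance was 278.5 bases. Of the 50 unmatched replicate 1 peaks, 11 lay within 500 bases of a replicate 2 peak, and the median distance was 2542.5 bases. The share within 500 bases over the whole lists is not given here. Peaks of the same list lay a median of 957.5 and 836 bases apart in this gene. Short distances between the lists therefore do not show that the replicates agree.

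The ATXN2 position with the highest lower −log10 p was 112018093 to 112018130, 19.35 kb from the start, a peak of 38 bases inside a replicate 2 peak of 41 bases. Its folds were 8.74 in replicate 1 and 14.8 in replicate 2, with −log10 p of 21.9 and 31.9, and in replicate 2 it stood above 99.9% of the list by fold. The next, at 112020384 to 112020414, 17.1 kb from the start, had folds of 8.78 and 7.55. Both positions were among the 3 of highest −log10 p in replicate 1.

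Closer to the start, the pair at 112030231 to 112030260 had folds of 5.20 and 6.04, the pair at 112022255 to 112022285 had 5.72 and 9.08, and the pair at 112030718 to 112030776 had 4.08 and 5.89. These 3 positions had the higher fold in replicate 2. The largest difference within an ATXN2 pair was at 112027230 to 112027265, with folds of 2.35 in replicate 1 and 7.50 in replicate 2. In replicate 2 that peak had the second highest −log10 p of the gene, 26.7.

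The ATXN2 peak of highest −log10 p in replicate 1 had no counterpart. It lay 93.1 kb from the start, at 111944331 to 111944362, with a fold of 10.4 and a −log10 p of 22.7, and the nearest replicate 2 peak was 1683 bases away. It was 1 of 13 ATXN2 peaks above 5-fold in replicate 1, and replicate 2 also had 13. Those are 18.3% of 71 and 31.0% of 42 peaks, against 9.16% and 18.0% in the whole lists. No ATXN2 peak was listed on the opposite strand in either replicate, although GENCODE release 29 lists the antisense gene ATXN2-AS as overlapping it. The same was true of the other 5 spans. The sources used here do not tell whether the listed strand was read from the libraries or from an annotation.

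The 25 deposited pairs came from TARDBP (1), MATR3 (6) and ATXN2 (18). The fold was higher in replicate 1 in 12 pairs and in replicate 2 in 13, and 24 of 25 were within a factor of 2 (96.0%), against 90.5% of all 13758 pairs. By gene, replicate 1 was higher in 1 of 1 TARDBP pair, 4 of 6 MATR3 pairs and 7 of 18 ATXN2 pairs. The median distance between the midpoints of paired peaks was 3 bases, and 4 bases over all pairs. Both folds passed 5 in 4 of the 25 pairs (16%), all in ATXN2, and in 1919 of all 13758 pairs (13.9%).

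**Figure D5:**
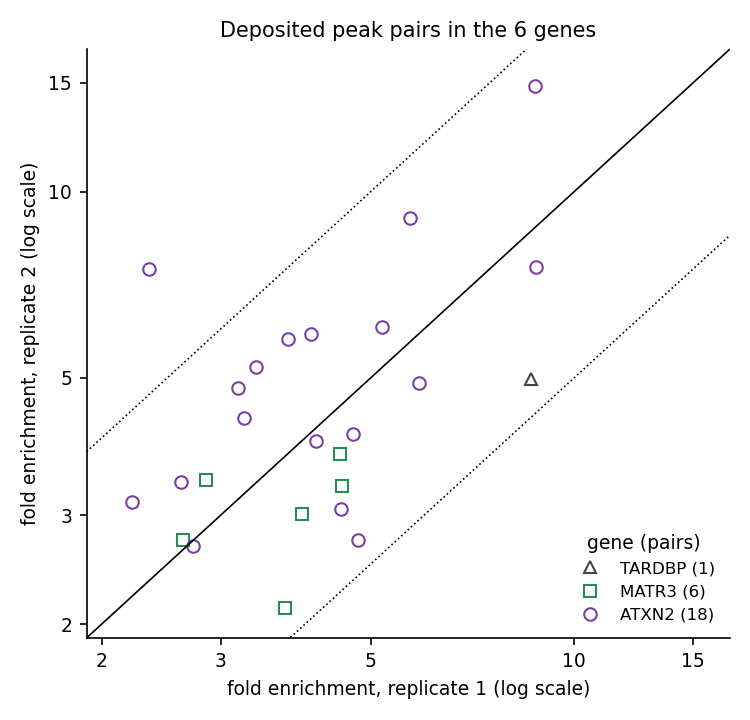
Fold enrichment in replicate 2 (vertical, log scale) against replicate 1 (horizontal, log scale) for the 25 deposited peak pairs in TARDBP, MATR3 and ATXN2. The solid line marks equal folds and the dotted lines a factor of 2, which 1 ATXN2 pair, at 2.35 and 7.50, exceeds.

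C9orf72 had 1 peak, in replicate 1 alone. It lay on chromosome 9, at 27573659 to 27573688, minus strand, 0.176 kb from the start of a span of 27.3 kb (27546543 to 27573864). Its fold was 3.12, the median of the replicate 1 list, and its −log10 p was 3.68. The nearest replicate 2 peak on that strand was 70.3 kb away. Where it lies relative to the repeat was not analysed here, since no sequence of the hg19 build was used.

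HNRNPA1, from 54674488 to 54679030 on the plus strand of chromosome 12, had no peak in either list. At 4.54 kb its span is the shortest of the 6. The nearest listed peaks on its strand lay 40.4 kb past its end in replicate 1 and 44.4 kb past it in replicate 2. GENCODE release 29 names 74 pseudogenes after HNRNPA1, copies of its transcript to which exon reads may also align. How reads with several alignments were treated by the authors is unstated in these sources, so the absence of listed peaks does not show an absence of binding. TARDBP has 2 such pseudogenes, TARDBPP1 and TARDBPP2, and the same limit applies to its exon reads.

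Over the 6 genes, 29 of 56 replicate 2 peaks overlapped a replicate 1 peak (51.8%, interval 38.0 to 65.3), against 28.8% in the rest of the list. In replicate 1 it was 31 of 91 (34.1%, 24.5 to 44.7), against 8.87% in the rest. These intervals treat peaks as independent, although ATXN2 alone held 42 of the 56 and 71 of the 91. No test against the rest was made. Peaks in the 6 genes also had a higher −log10 p, at medians of 5.77 and 6.34 in replicates 1 and 2, against 3.70 and 4.24 in the rest. Fold was not higher outside ATXN2. The 5 other genes together had median folds of 3.10 and 3.08, against 3.12 and 3.81 in the rest. The part of the higher −log10 p in the overlap was not tested. Above 5-fold were 15 of 91 peaks in replicate 1 (16.5%) and 13 of 56 in replicate 2 (23.2%), against 9.16% and 18.0% in the rest. Of these 28 peaks, 26 were in ATXN2. In the 5 other genes the shares above 5-fold were 10% of 20 peaks in replicate 1 and 0% of 14 in replicate 2.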

How the data were processed

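Peaks were called in each library by the authors, whose peak names carry the caller MACS2 and a p threshold of 0.005. The submitters' processing notes list, with no role, deepTools 3.2.1, HOMER 4.11.1, bedtools 2.25.0, MACS2 2.1.1.20160309, Novoalign 3.09.00 and the hg19 build. The sources used here do not tell if input served as control for the caller. The deposited lists give each peak a fold enrichment, which is a ratio, an unadjusted −log10 p and a score, the integer part of 10 times that value in all but 112 replicate 2 entries, where rounding of the printed value moves it by 1. These are the authors' values, used to describe and rank peaks within a list. The deposited pairs equal the same-strand overlaps that cover 50% or more of a replicate 1 peak. The 8 columns of the authors' count table match no sample label and were not used.

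Repeated rows (467329 rows for 210878 entries in replicate 1, 148958 for 65587 in replicate 2) were merged into a single entry for each peak and strand. Positions are 1-based in hg19. GENCODE release 29, on GRCh38, gave gene and exon lengths, names and overlapping genes only. The 15 other ALS-linked genes named in the design, and genes of like pattern, were not analysed here, since they need an hg19 annotation. Named peaks are the 3 of highest −log10 p per gene and list, and all deposited pairs of a gene, or the 5 with the highest lower −log10 p where there are more than 10. The short MATR3 stretch and the 20-kb limit in ATXN2 were chosen after their values were seen. Members and lists were chosen with earlier results of these data known. The overlap count was tested on simulated peaks and against bedtools 2.31.1. Computation used scipy 1.17.1, pandas 2.3.3, numpy 2.4.6 and matplotlib 3.10.9 under Python 3.11.15. Alternatives were a −log10 p of at least 3, strand ignored, the peak midpoint, overlap of 50% of the replicate 1 peak or of both, only the stronger 50% of peaks, a shortened replicate 1 list, and each replicate left out.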

Additional observations from a re-analysis of the deposited data

How the results depend on the processing

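Depth is unknown for both lists, and with 1 list per library no value here has a test between groups. Over the 6 genes, 28 recomputed values stayed within 1.5 times the main count, within the interval of the main share or within the spread of the replicates, and 1 moved. The mean of 0.274 peaks per kb was 0.209 to 0.340 with 1 replicate left out. Those are the values of each replicate alone, so they had to stay within the spread of the replicates and do not show stability. A −log10 p of at least 3 left 84 and 55 peaks in replicates 1 and 2, and took 1 of the 2 RBM45 peaks. Strand ignored and peak midpoints gave the same 91 and 56 peaks. For strand this outcome was fixed, since no span held a peak on the opposite strand. The strand values and those of each replicate alone are counted among the 28, which therefore overstates the stability. The 51.8% of replicate 2 peaks with an overlap became 41.1% when the replicate 1 list was shortened, 42.9% when each of both peaks had to share 50%, and 44.6% when the overlap had to cover 50% of the replicate 1 peak. With 50% of the replicate 1 peak covered, the share over the whole replicate 2 list was 20.9%. At the other settings the whole-list share is not given here, so those shares cannot be set against it. Spans extended by 10 kb, and ATXN2 alone or left out, were chosen after seeing the data. Without ATXN2 the 31 overlapping pairs became 10, because ATXN2 alone holds 21 of them, and the share was 64.3% of 14 peaks. No paired analysis was possible because all peaks analysed come from 1 group, WT CLIP, and no count could be tied to a sample.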

Other observations

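The number of rows in which an entry is repeated differed by gene. RBM45, TARDBP and ATXN2 entries stood in 1 row each, the C9orf72 entry in 2 rows, and MATR3 entries in 3 to 6 rows in replicate 1 and 4 to 6 in replicate 2. The sources used here do not tell what a repeat stands for. On the strand opposite to the gene, within 10 kb on either side, 6 replicate 1 peaks and 1 replicate 2 peak lay beside ATXN2, and 2 replicate 1 peaks and no replicate 2 peak lay beside HNRNPA1. The other 4 genes had none.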
